A study of Rattus norvegicus with 8 samples.

Results

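Messenger RNA for genes of histamine synthesis, histamine breakdown, histamine receptors and mast cells was followed in the hippocampus of rats given yohimbine and imipramine together (Y+I) or vehicle. The 10 genes are Hdc, Hnmt, Hrh1, Hrh2, Hrh3, Tpsab1, Tpsb2, Cma1, Cpa3 and Kit, and their probes were found by the gene name in the scanner files, with a current alias allowed. They were read by 11 of the 30367 probes on the array, 1 for each gene and a second probe for Hrh3. Of the 10 genes, 6 (Hdc, Hnmt, Hrh1, Hrh3, Tpsab1 and Kit) entered the fit across 18803 genes and unnamed probes, and 4 (Hrh2, Tpsb2, Cma1 and Cpa3) were too dim to be tested. The genes were chosen by earlier results of these same arrays, in which the log2 signal of some of them differed between the groups, so their values are given as a description, without p-values.

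The animals were male Sprague Dawley rats aged 3 months, treated for 7 days with vehicle or Y+I, and hippocampal tissue was taken 2 h after treatment. Each group held 4 animals, hybridised to separate 1-colour arrays (n = 4 in each group). Yohimbine blocks alpha2-adrenoceptors and imipramine, a tricyclic antidepressant, inhibits reuptake of noradrenaline and serotonin. Animals given either drug alone were not analysed here, so the drugs cannot be told apart.

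Histidine decarboxylase, encoded by Hdc, makes histamine from histidine. In the brain the enzyme is known from neurons of the tuberomammillary nucleus, a hypothalamic cell group whose axons reach the hippocampus, and from mast cells, which sit mainly near vessels and meninges and store histamine in granules together with proteases. Histamine N-methyltransferase, encoded by Hnmt, inactivates it, and the receptors encoded by Hrh1, Hrh2 and Hrh3 couple to different G proteins, with the H3 receptor acting on nerve terminals to limit transmitter release.

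Because each level is what 1 array probe of 60 bases captures, the last 30 bases of 5 probes are shown, for the 3 genes whose groups did not overlap and for the paralog of one of them. Of the 18803 genes and unnamed probes in the fit, 11.7% had groups that did not overlap. Capitals mark AATAAA, the letters of the common polyadenylation signal, and all sequences run 5′ to 3′. The Hdc probe is at chr3:114119325-114119384 (minus strand), the Tpsab1 probe at chr10:14591591-14591650 (minus strand) and the Tpsb2 probe at chr10:14614370-14614429 (plus strand), all on the rat build rn4 as given in the files. The Hrh3 probes are at chr3:169154985-169155044 (probe a) and chr3:169156371-169156430 (probe b), both on the minus strand. Which exon or untranslated region each probe covers was not given in the sources used here.
Hdc: aaaaaacaacctagaAATAAAttgtgccta
Tpsab1: ctgctatggctcAATAAAatgcattaaagc
Tpsb2: tgctggaaataccaggagcgactcctgcca
Hrh3 probe a: aatgtgaaaacacAATAAAgtgtatttttt
Hrh3 probe b: gatggtgtcccagagcatcacccagcgctt
The probes of Hdc and Tpsab1 and probe a of Hrh3 held AATAAA in these bases. A signal of the letters AATAAA or ATTAAA was present in the last 30 bases of 3 of the 11 probes (27.3%), against 2637 of all 30367 probes (8.68%). The letters say only that the sequence is there. Tpsab1 and Tpsb2 encode closely related tryptases, and at their best ungapped alignment the 2 probes shared 25 of 60 bases. Hybridisation of one probe to the other transcript was not tested.

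Hdc, the enzyme that makes histamine, had 5.54-fold more signal in Y+I than in vehicle, and Tpsab1, a mast cell tryptase, 3.05-fold more. Hrh3 had 1.66-fold less signal in Y+I with groups that did not overlap, but it was not called in the fit across all features. The values of Hnmt, Hrh1 and Kit overlapped between the groups, and the mast cell protease genes Tpsb2, Cma1 and Cpa3 were at or near background. Called here means an adjusted p under 0.05 in limma with Benjamini-Hochberg adjustment over all 18803 features. Of the 6 genes tested, 2 were called, both higher, against 2.33% of all features called in either direction, 0.739% higher and 1.6% lower. Since the genes were picked with this contrast known, nothing is read from the difference between these shares.

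**Figure D1:**
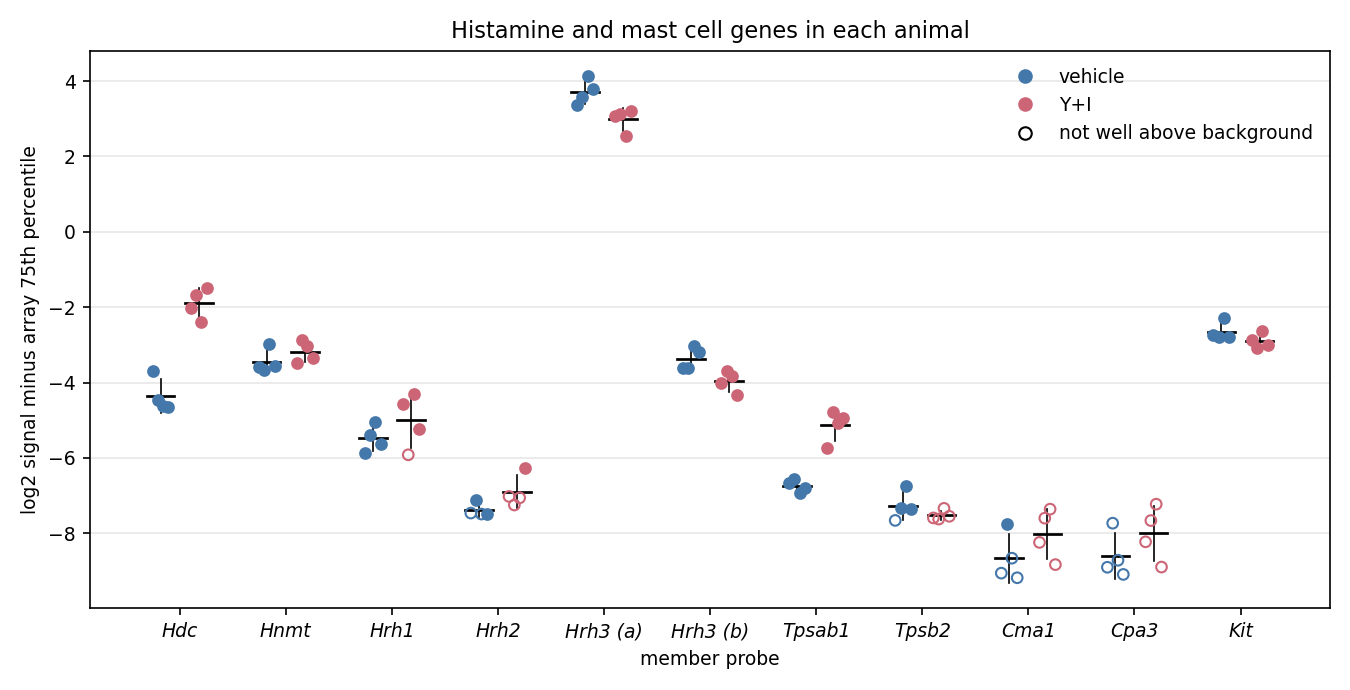
Normalised log2 signal (log2 processed signal less the array's 75th percentile) of each animal for the 11 probes, vehicle in blue and Y+I in red, with the group mean and SD (n = 4). Filled points were well above background and open points were not; Hrh3 (a) and (b) are probes a and b. Hdc and Tpsab1 lie apart in the groups, both Hrh3 probes are lower in every Y+I animal than in any vehicle animal, and Cma1 and Cpa3 are almost all open points.

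The 8 arrays lay on 1 slide read in 1 scan, and since each treatment filled a slide row of its own, row and treatment cannot be told apart. The share of the 58717 noncontrol spots well above background was 76.4% to 79.7% in vehicle and 64.4% to 74.8% in Y+I, lowest in Y+I animals 2 and 3. Levels are log2 of the processed signal, the scanner's background-subtracted brightness, less that array's 75th percentile, so that 0 is the brightness exceeded by 1 in 4 spots. That percentile was 1939 to 2106 scanner units in vehicle arrays and 1045 to 1971 in Y+I. No spot was saturated, and precision is limited by having 4 arrays in each group. Levels of different genes are not compared, since probes differ in how well they bind.

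The level of Hdc was -3.71, -4.47, -4.62 and -4.64 in vehicle animals 1 to 4. In Y+I animals 1 to 4 it was -2.01, -1.67, -2.39 and -1.49. Every Y+I animal was above every vehicle animal, and vehicle animal 1, the highest of its group, still lay below Y+I animal 3, the lowest of the other. The group means were -4.36 ± 0.44 (SD) and -1.89 ± 0.40, a log2 fold change of 2.47 ± 0.26 (SE) with a 95% interval of 1.89 to 3.05, or 3.70-fold to 8.30-fold. Before any scaling, the processed signal was 79.0 to 156 scanner units in vehicle arrays and 373 to 467 in Y+I, so the ranges were also apart on the raw scale. The probe was printed in 2 spots per array, and all 8 spots of each group were well above background. The 2 spots differed by at most 1.20-fold on any array. Under normexp background correction, a model-based subtraction with an added offset that damps differences between dim spots, the log2 fold change of Hdc was 1.93, from -3.62 ± 0.30 to -1.70 ± 0.38. Over the 22 alternative settings it ran from 1.93 to 2.69 and was called in 22.

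Hnmt, whose product methylates histamine, is read by a probe at chr3:2058230-2058289 (rn4). In vehicle its levels were -3.58, -3.66, -2.99 and -3.57, with animal 3 above the others. The Y+I animals had -3.47, -2.87, -3.02 and -3.35. The groups overlapped, and the log2 fold change was 0.27 ± 0.19 (SE; 95% interval -0.15 to 0.70), not called. As a ratio the interval ran from 0.900-fold to 1.63-fold. The degrading enzyme was not called in any of 22 alternatives, where its log2 fold change ran from 0.04 to 0.43.

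Hrh1 encodes the H1 receptor, which acts through Gq and phospholipase C, and its probe is at chr4:150432640-150432699 (rn4). It gave -5.86, -5.39, -5.05 and -5.62 in vehicle. In Y+I the levels were -4.56, -5.92, -4.29 and -5.23, and the array of animal 2 was not well above background. Animals 1 and 3 of the Y+I group were above all vehicle animals, while animal 2 was below all of them. The log2 fold change was 0.48 ± 0.34 (SE; 95% interval -0.29 to 1.25), not called. Normexp gave nearly the same log2 fold change for Hrh1, 0.48, with a smaller SE of 0.12, and called it there, the only 1 of 21 alternatives that did.

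Hrh2 encodes the H2 receptor, which raises cyclic AMP through Gs, and its probe is at chr17:16497967-16498026 (rn4). It was well above background on 2 vehicle arrays and 1 Y+I array and was not tested. The levels were -7.46, -7.10, -7.49 and -7.48 in vehicle. Those of Y+I animals 1 to 4 were -7.02, -7.25, -7.06 and -6.26, with animal 4 the only one well above background. A difference in Hrh2 was therefore not measurable at this signal.

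Hrh3, the gene of the H3 receptor, was read with probe a at 3.37, 3.58, 4.13 and 3.78 in vehicle. In Y+I probe a gave 3.08, 3.12, 2.53 and 3.19. All Y+I animals were below all vehicle animals, with Y+I animal 3 the lowest and the gap between the groups narrow, from 3.19 to 3.37. Of all features, 11.7% showed no overlap, 5.04% with Y+I higher and 6.65% with Y+I lower. The means were 3.72 ± 0.32 and 2.98 ± 0.30, a log2 fold change of -0.73 ± 0.20 (SE; 95% interval -1.18 to -0.29). It was not called, and in none of the 22 alternatives was it called, while its log2 fold change ran from -0.85 to -0.58. Probe b, a single dimmer spot that was not chosen for the test because each gene was represented by its brightest probe, gave -3.62, -3.62, -3.04 and -3.19 in vehicle. Its Y+I levels were -4.00, -3.70, -3.83 and -4.33, again without overlap. The difference of probe b was -0.60, from -3.37 ± 0.30 to -3.97 ± 0.27, so both probes of the gene differed the same way. In raw signal probe a gave 21017 to 33983 scanner units in vehicle arrays and 9563 to 15986 in Y+I.

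**Figure D2:**
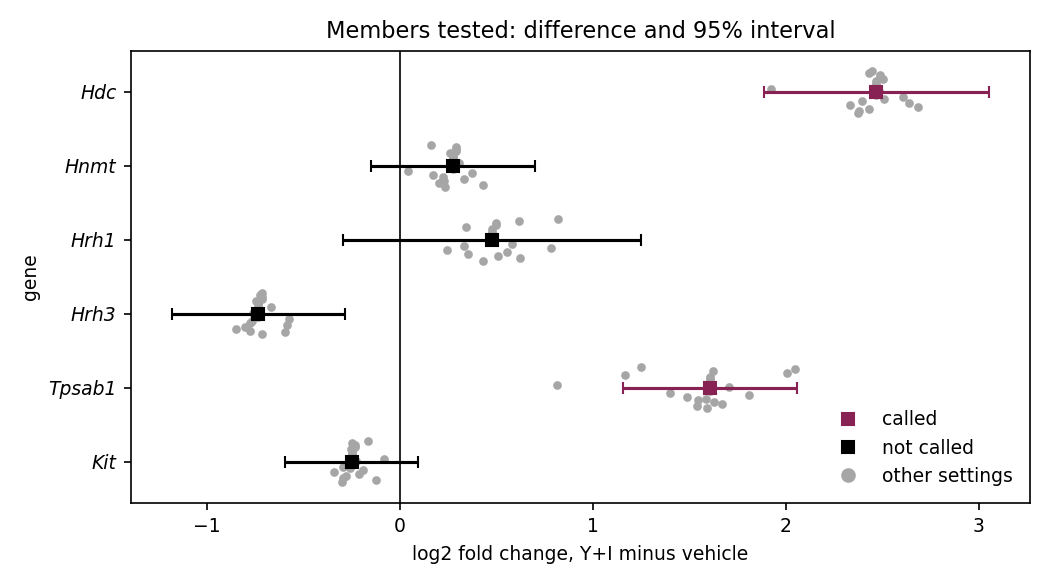
Log2 fold change of Y+I minus vehicle for the 6 genes tested, with the 95% interval of the fit (squares and bars; purple where called, black where not) and each alternative setting as a grey point. The intervals of Hdc (1.89 to 3.05), Tpsab1 and Hrh3 exclude 0, those of Hnmt, Hrh1 and Kit do not, and the lowest grey point of Tpsab1 is 0.82.

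Tpsab1 encodes a tryptase stored in mast cell granules. Its levels in vehicle animals 1 to 4 were -6.67, -6.55, -6.94 and -6.79. Y+I animals 1 to 4 had -5.73, -4.78, -5.07 and -4.94. No Y+I animal overlapped vehicle, but the signal was close to background throughout. The means were -6.74 ± 0.17 and -5.13 ± 0.42, a log2 fold change of 1.61 ± 0.20 (SE), or 3.05-fold with a 95% interval of 2.23-fold to 4.17-fold. With normexp the log2 fold change was 0.82, still called, and over the 22 alternatives it ran from 0.82 to 2.05. Some mast cell probes that were well above background on no array also read higher in Y+I. The log2 difference was 1.29 for Mcpt10 (mean -9.36 in vehicle), 1.24 for Ms4a2 (-9.34) and 0.61 for Cpa3 (-8.61). The dim Tpsb2 differed by -0.25. The part of background in the value of Tpsab1 was not tested.

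The 2 spots of the Tpsab1 probe did not give the same signal. In Y+I animal 3 they read 172.6 and 20.0 scanner units, an 8.63-fold difference, and in Y+I animal 2 they read 81.8 and 32.2, a 2.54-fold difference. Reading the brighter spot of each array gave 20.3 to 24.6 in vehicle and 41.3 to 172.6 in Y+I. Reading the dimmer one gave 12.04 to 19.3 in vehicle and 20.0 to 32.2 in Y+I, so the dimmer spots too were higher in every Y+I animal than in any vehicle animal, although the lowest, 20.0 in Y+I animal 3, lay below the brighter spot of every vehicle animal. Of the 8 spots in each group, 6 were well above background in vehicle and 6 in Y+I. With the dimmer spot of every probe, a setting chosen after seeing the data, the log2 fold change of Tpsab1 was 1.17 and the gene was no longer called. It was 1.40 and not called without Y+I animals 2 and 3, the arrays with the fewest spots above background and the largest gaps between the spots. By comparison, the 2 spots of Hdc, Hnmt, Kit and probe a of Hrh3 differed by at most 1.38-fold on any array.

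**Figure D3:**
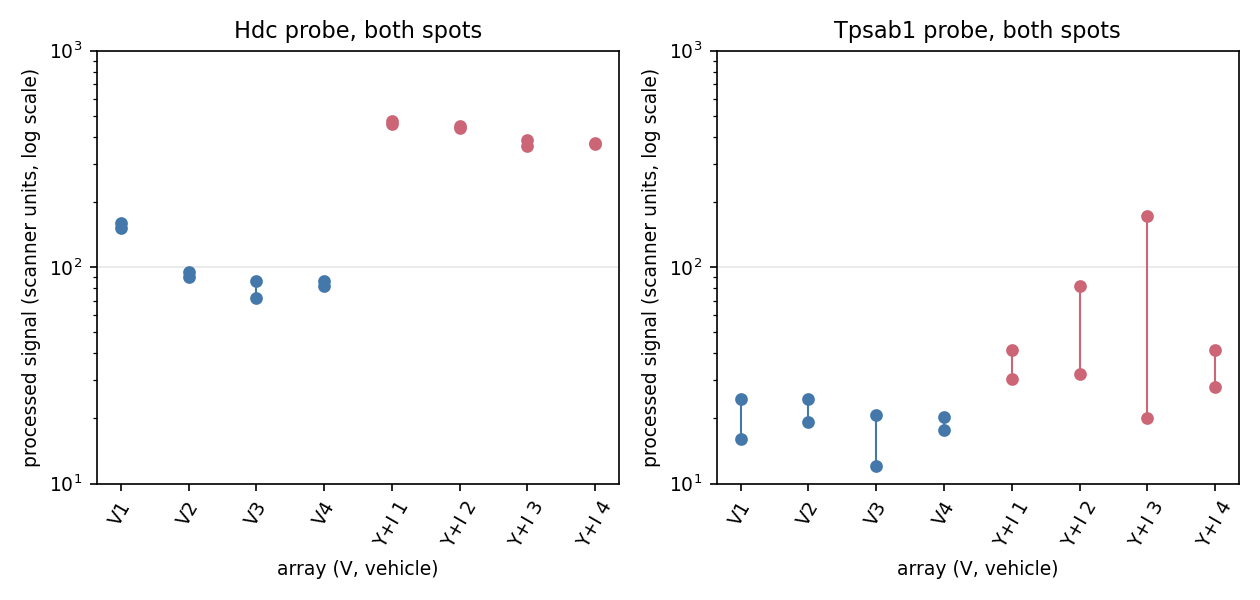
Processed signal (scanner units, log scale) of the 2 spots of the Hdc probe (left) and of the Tpsab1 probe (right) on each array, vehicle in blue and Y+I in red, with a line joining spots of an array. The Hdc spots lie on each other and the groups are apart, while the Tpsab1 spots of Y+I animal 3 read 20.0 and 172.6.

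The other tryptase gene, Tpsb2, was well above background on 3 vehicle arrays and on 0 of the 4 Y+I arrays, and was not tested. Its levels were -7.66, -7.32, -6.76 and -7.35 in vehicle. In Y+I they were -7.59, -7.62, -7.34 and -7.55, all not well above background. The difference of Tpsb2 was -0.25 and turned to 0.29 with normexp, so its direction depends on the background correction. Whether the 2 tryptase genes differed in their response was not tested.

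Cma1, the gene of the mast cell chymase (probe at chr15:34083229-34083288, rn4), was well above background on 1 vehicle array, that of animal 2, and on 0 Y+I arrays. Cpa3, the gene of the granule carboxypeptidase (chr2:105385518-105385577, rn4), was not well above background on any of the 8 arrays. The levels of Cma1 lay from -9.18 to -7.76 in vehicle and from -8.83 to -7.36 in Y+I. Those of Cpa3 lay from -9.09 to -7.73 in vehicle and from -8.90 to -7.23 in Y+I. The lowest signal that counted as well above background was itself higher in Y+I arrays (-8.97 to -7.42) than in most vehicle arrays (-9.66 to -8.28). Neither gene was tested, so neither has a fitted fold change. The log2 difference of 0.61 given above for Cpa3 is between readings not well above background. At this signal carboxypeptidase messenger RNA was not detectable in either group, and chymase messenger RNA only on 1 vehicle array.

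Kit encodes the receptor of stem cell factor, on which mast cells depend and which some neurons also make, and its probe is at chr14:34906043-34906102 (rn4). It was well above background on all 8 arrays, at -2.74, -2.78, -2.28 and -2.80 in vehicle. Y+I animals had -2.88, -3.09, -2.63 and -3.01. The groups overlapped through Y+I animal 3, and the log2 fold change was -0.25 ± 0.15 (SE; 95% interval -0.59 to 0.09), not called. The receptor was not called in any of 22 alternatives, with a log2 fold change of -0.34 to -0.08.

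Mast cell markers were then taken as a list of 16 genes, 6 of which are among the 10 genes above, and 15 had a probe. Mcpt2 had none. Of the list, 7 genes were tested and 2 were called, Hdc and Tpsab1, both higher. Of the 15, 5 were well above background on all 8 arrays and 3 on 0 arrays. Ms4a2, the beta chain of the high-affinity IgE receptor, and the proteases Mcpt10 and Cpa3 were not well above background on any of the 8 arrays, and Fcer1a, the alpha chain of that receptor, was so on 1 vehicle and 1 Y+I array. Gata2, a transcription factor of mast cells and other blood cells, was detected on all 8 arrays at a mean of -5.16 in vehicle and -5.31 in Y+I. With all 15 probes, the summed signal in units of each array's 75th percentile was 0.646 to 0.739 in vehicle and 0.823 to 0.877 in Y+I. Without Hdc and Tpsab1, the summed signal of the other 13 was 0.597 to 0.690 in vehicle and 0.487 to 0.623 in Y+I. Of these 13, 3 were well above background on all 8 arrays and 8 were not so on all arrays of either group. The higher sum in Y+I thus came with those 2 genes included and was not seen in the sum of the other 13. That sum is set mainly by its brightest probes, Srgn (mean -1.47 in vehicle and -1.71 in Y+I) and Kit (-2.65 and -2.90). It therefore says little about the dim genes of the list. In bulk tissue, a different number of cells of a type and a different amount of messenger RNA per cell cannot be told apart.

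**Figure D4:**
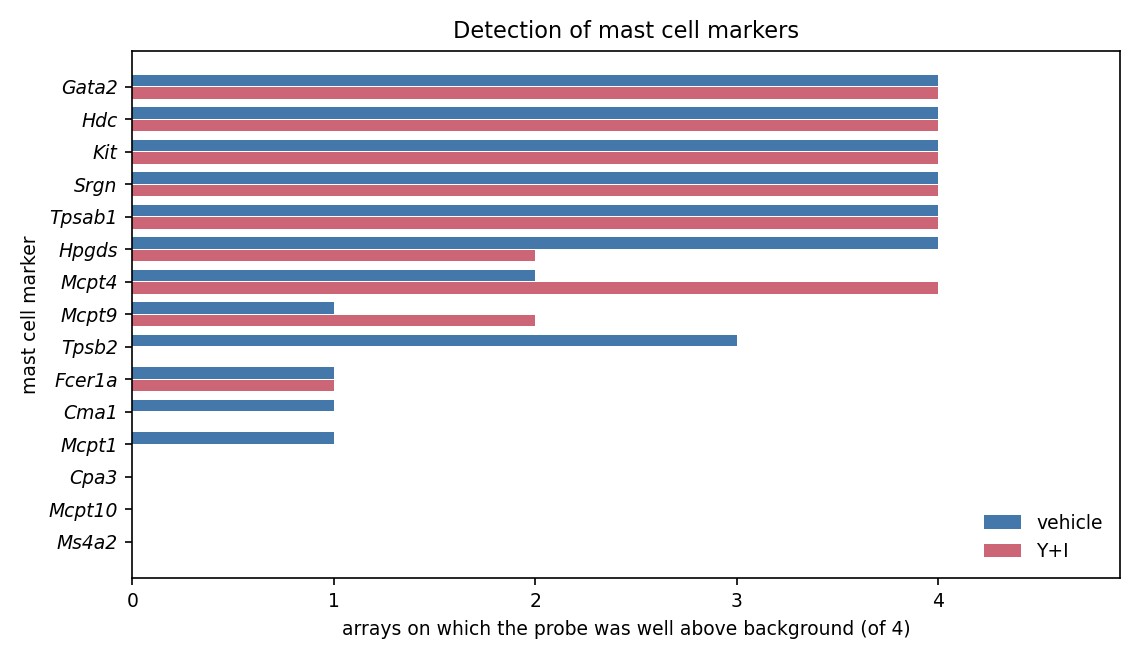
Number of arrays, of 4 in each group, on which the probe of each mast cell marker was well above background, vehicle in blue and Y+I in red. Hdc, Tpsab1, Kit, Gata2 and Srgn reach 4 in both groups, and Cpa3, Mcpt10 and Ms4a2 are at 0 in both.

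The other proteases of mast cells and basophils were listed as 14 genes, of which 12 had a probe and 3 were tested. None of the 3 was called, and their median log2 fold change was 0.06, against -0.02 for all features. Mcpt4, a mast cell protease, had a log2 fold change of 0.85 ± 0.79 (SE, limma adjusted p = 0.663). Vehicle animal 3 was at -4.89, the other vehicle animals at -8.50 to -8.07 and Y+I animals at -7.51 to -5.76. The proteases Mcpt8 and Prss34 had log2 fold changes of 0.06 and 0.02 (limma adjusted p = 0.949 and 0.958).

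Other mast cell markers were listed as 22 genes, of which 21 had a probe and 15 were tested. None of the 15 was called, and their median log2 fold change was -0.24. The smallest p-values were those of the prostaglandin D synthase Hpgds (-0.47 ± 0.13 SE, limma adjusted p = 0.118), the kinase Btk (-0.61 ± 0.17, adjusted p = 0.129, well above background on 1 Y+I array) and the Fc receptor gamma chain Fcer1g (-0.30 ± 0.10, adjusted p = 0.171). Both probes of Il1rl1, the receptor of interleukin 33, were not well above background on any array. Microglia also express Hpgds, Btk and Fcer1g.

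Growth and activation signals of mast cells were listed as 21 genes, of which 20 had a probe and 16 were tested, with 0 called higher, 1 called lower and a median log2 fold change of -0.17. Crhr1, a receptor of corticotropin-releasing hormone, fell, with a log2 fold change of -1.19 ± 0.24 (SE; limma adjusted p = 0.0417), and was well above background on 4 vehicle arrays and 2 Y+I arrays. It was called in 0 of the 8 fits that left out 1 animal each (adjusted p up to 0.107, without vehicle animal 4), and with normexp its log2 fold change was -0.16 (adjusted p = 0.483). Kitlg, the gene of stem cell factor, the ligand of Kit, differed by -0.22 ± 0.16 on the log2 scale (adjusted p = 0.572), read with its brightest probe. A dimmer probe of Kitlg differed by -0.03, and another was well above background on no array. Tac1, the substance P precursor, had -0.89 ± 0.27 (adjusted p = 0.143) and the cytokine Tgfb1 had -0.44 ± 0.18 (adjusted p = 0.287). Neither the receptor Kit nor its ligand was called.

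Other genes of histamine metabolism and transport were listed as 11, all with a probe, and 7 were tested. None was called, and the median log2 fold change was 0.06. Hrh4, the gene of the H4 receptor of immune cells, had a log2 fold change of 0.09 ± 0.13 (SE; limma adjusted p = 0.806). Slc18a2, the vesicular transporter that loads histamine and other monoamines, had 0.00 ± 0.22 (adjusted p = 1.0), and Maob, the monoamine oxidase that acts after Hnmt, had 0.06 ± 0.12 (adjusted p = 0.872). Aldh7a1 and Aldh2, aldehyde dehydrogenases, had -0.30 ± 0.11 (adjusted p = 0.203) and -0.20 ± 0.15 (adjusted p = 0.560). The monoamine transporter Slc29a4 had 0.33 ± 0.17 (adjusted p = 0.402).

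Genes of histidine supply and of other fates of histidine were listed as 15, of which 13 had a probe and 11 were tested. None was called, with a median log2 fold change of -0.03. Ftcd, an enzyme of histidine breakdown, had -1.50 ± 0.37 (SE; limma adjusted p = 0.0847), the carnosinase Cndp1 had -0.25 ± 0.12 (adjusted p = 0.359) and the amino acid transporter Slc7a5 had -0.44 ± 0.21 (adjusted p = 0.365). Hal, histidine ammonia lyase, was not detected on any array. G proteins and effectors of the histamine receptors were listed as 18 genes, all tested, none called, with a median of 0.06. Phospholipase C beta (Plcb1), protein kinase C beta (Prkcb) and the inositol trisphosphate receptor Itpr1, which act downstream of the H1 receptor and many others, had log2 fold changes of 0.31 ± 0.10, 0.32 ± 0.11 and 0.37 ± 0.14 (adjusted p = 0.181, 0.192 and 0.234).

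The labelled tissue was checked with 12 markers of hippocampal neurons, of which 11 had a probe. Of these 11, 8 were well above background on all 8 arrays and 0 were undetected. Their summed signal was 29.3 to 42.5 in vehicle and 52.1 to 55.2 in Y+I, with 0 of 11 called. Histaminergic cell bodies lie in the hypothalamus, and of 8 tested markers of tuberomammillary neurons 0 were called higher and 1, the intermediate filament Prph, was called lower (-2.06 ± 0.31 SE, limma adjusted p = 0.0150, and 0.0590 without vehicle animal 4). Sums here and below cover every gene of a list with a probe, tested or not. They add unlogged signals, so each is weighted to the brightest probes of its list and says little about the dim ones. That of the 9 tuberomammillary markers was 2.84 to 3.38 in vehicle and 2.69 to 3.02 in Y+I. Some markers of other cell types were also called between the groups. Of all features, 1.6% were called lower and 0.739% higher. Of 12 markers of meninges and fibroblasts, where mast cells are often found, 4 were called lower and 0 higher, and their sum was 6.57 to 8.05 in vehicle and 4.49 to 5.01 in Y+I. These were the GABA transporter Slc6a13 (-1.02, limma adjusted p = 0.0105), the collagen Col1a1 (-1.03, adjusted p = 0.0135), Igfbp2 (-0.73, adjusted p = 0.0383) and Foxc2 (-1.03, adjusted p = 0.0343). Foxc2 was well above background on 4 vehicle arrays and 0 of 4 Y+I arrays, so it entered the fit through the vehicle group alone. Slc6a13 and Col1a1 were called in all 8 fits that left out 1 animal, Igfbp2 and Foxc2 in 1 of 8, and the log2 fold change of Foxc2 turned to 0.07 with normexp. Of 3 red cell markers with a probe, 2 were called lower, Hbb (-0.99, adjusted p = 0.0170, called in 5 of 8 fits that left out 1 animal) and Alas2 (-0.90, adjusted p = 0.0289, called in 1 of 8), with a sum of 15.1 to 17.5 in vehicle and 6.55 to 10.47 in Y+I. In the list for thalamus and habenula, 1 of 10 was called higher, Tac3 (0.81, adjusted p = 0.0255, 4 of 8), and 1 lower, Slc17a6 (-1.17, adjusted p = 0.0291, 2 of 8), with a sum of 6.29 to 8.28 in vehicle and 7.18 to 9.44 in Y+I, and Gpr151 and Pou4f1 were detected on 0 arrays. The part of these cell type differences in the values of Hdc, Tpsab1 and Hrh3 was not tested.

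Lists of further cell types had no gene called. For microglia and macrophages, 9 genes were tested with 0 called, and the sum was 7.36 to 8.09 in vehicle and 6.62 to 9.002 in Y+I. For neutrophils, 4 genes were tested with 0 called, the sum was 0.148 to 0.226 in vehicle and 0.199 to 0.370 in Y+I, and Ltf, Mmp8 and Mpo were detected on 0 arrays. The median log2 fold change of the 4 was 0.97. S100a9, a calcium-binding protein of neutrophils and monocytes, read -6.22, -5.66, -6.79 and -6.35 in vehicle and -3.12, -3.94, -6.17 and -3.46 in Y+I, a log2 fold change of 2.08 ± 0.60 (SE; limma adjusted p = 0.129). Its partner S100a8 read -6.87, -5.73, -6.54 and -7.09 in vehicle and -3.37, -3.85, -6.69 and -3.61 in Y+I, a log2 fold change of 2.18 ± 0.69 (adjusted p = 0.158). For both, Y+I animals 1, 2 and 4 were above every vehicle animal and Y+I animal 3 was within the vehicle range. The part of these blood cell genes in the values of Hdc and Tpsab1 was not tested. For endothelium and mural cells, 0 of 11 were called, with a sum of 15.3 to 15.8 in vehicle and 13.2 to 15.5 in Y+I. Interneuron markers, some of whose cells also make Kit, had 0 of 10 called and a sum of 38.2 to 41.9 in vehicle against 32.9 to 38.7 in Y+I. Choroid plexus markers had 0 of 3 called, and the sum over all 8 with a probe was 0.216 to 4.56 against 0.338 to 1.55. Platelet markers had 0 of 3 called, and the sum over the 4 with a probe was 5.58 to 6.64 against 4.80 to 5.52. The platelet sum is set mainly by Gp1bb (mean 2.56 in vehicle and 2.33 in Y+I). The other tested platelet genes, Pf4 and Gp9, had log2 fold changes of 0.36 and -0.18.

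Features whose pattern over the 8 arrays was most like that of Hdc were Vav3 (Pearson r = 0.991), Ror2 (0.986), Slc66a2 (0.985), Eif4a3 (0.985) and Rbm38 (0.983). Ror2 encodes a receptor of Wnt5a. For Tpsab1 they were Rb1 (0.984), Eif4a3 (0.979), Tmcc3 (0.979), Azin1 (0.975) and Rasl11b (0.973). Eif4a3, an RNA helicase of the exon junction complex, was in both groups of 5, with a log2 fold change of 0.30. Hdc and Tpsab1 themselves correlated at r = 0.940. The 8 points of every pair share the arrays and the difference between the groups, and r describes only these 8 arrays.

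Of the 10 genes, 9 had a promoter in RefSeq (assembly GRCr8), defined here as the 250 bases before the start. Those of the 2 genes called are shown, 5′ to 3′ on the strand of the gene, with the motif named after each in capitals. The Hdc promoter lies at chr3:134318705-134318954 (minus strand) and the Tpsab1 promoter at chr10:14867303-14867552 (minus strand).
Hdc promoter, GGGCGG: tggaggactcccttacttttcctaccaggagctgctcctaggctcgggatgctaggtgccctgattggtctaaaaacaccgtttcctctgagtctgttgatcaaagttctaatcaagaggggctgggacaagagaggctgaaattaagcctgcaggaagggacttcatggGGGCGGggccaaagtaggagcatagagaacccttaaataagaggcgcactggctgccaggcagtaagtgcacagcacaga
Tpsab1 promoter, GATAA: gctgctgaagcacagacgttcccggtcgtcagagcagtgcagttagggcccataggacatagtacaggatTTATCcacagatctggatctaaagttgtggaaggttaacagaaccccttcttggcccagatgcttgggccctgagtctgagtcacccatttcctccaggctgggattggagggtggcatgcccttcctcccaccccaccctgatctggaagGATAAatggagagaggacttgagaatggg
The GC box GGGCGG was in the promoter of Hdc, 80 bases before the start, and on either strand in 5 of the 9 promoters (Hdc, Hrh1, Hrh3, Kit and Tpsb2), against 30.5% of 33469 promoters of the same length. The GATA core GATAA occurred in that of Tpsab1 in 2 places, the nearer 29 bases before the start, and in 4 of the 9 (Tpsab1, Cma1, Cpa3 and Hrh1), against 23.5% of all. The core TGACG of the cyclic AMP response element was present in Tpsab1 and in 18.2% of all promoters, and TATAAA in Cpa3 and in 12.9%. The glucocorticoid element ACANNNTGT was found in 0 of the 9 and in 5.81% of all, and the E-box CAGCTG in 0 of the 9 and in 11.97% of all. The 2 genes called shared none of the motifs searched in these windows. A match describes letters and no binding.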

How the data were processed

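Cy3-labelled hippocampal RNA of 8 separate animals was hybridised to 1-colour arrays, per the labels' protocols. The deposited intensity values are spot signals from Agilent Feature Extraction 10.5.1.1, background-subtracted and not normalised between arrays, per the file headers. The authors' deposited log2 value table served as an alternative; its scale was not given in the sources used here and was inferred from the scanner values, with 75th percentiles of 0.007 to 0.013, medians of -3.51 to -3.35 and slopes of 0.996 to 0.997. How the animals were housed was not given in the sources used here.

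Values were log2 processed signal minus the 75th percentile of each array. Spots marked non-uniform or as population outliers were left out and spots of a probe averaged. Near background the processed signal is a surrogate, which can change the size of a dim gene's difference. Probes were kept when well above background on at least 50% of spots on all 4 arrays of a group, with at least 3 values per group, and each symbol was represented by its brightest probe. A gene can therefore pass through the group where it is high. Symbols were updated through RefSeq (GRCr8), by accession for 18004 probes, by symbol for 2320 and by synonym for 626, while 1999 kept the file's name and 7418 had none. Groups were compared with limma 3.58.1 in R 4.3.3 (lmFit and eBayes, two-sided, Benjamini-Hochberg, threshold 0.05), which was tested on simulated data.

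The 10 genes and the other lists were chosen with earlier results of these data known. Named beside them were, in each pathway list, every gene called and up to 3 more with the smallest p, always Hrh4, Fcer1a, Ms4a2, Kitlg, Maob and Slc18a2, and the 5 features most like Hdc and Tpsab1. Some results under the rule are not reported here. Alternatives covered normalisation, normexp correction (offset 50), filters, the value table, probe summaries, variance models, a replicate block and each array left out. Same-numbered animals did not deviate together (r = 0.05, -0.11, -0.04 and 0.04), so numbers were not taken as pairs. Promoters come from RefSeq (GRCr8) and probe positions from the files (rn4). Plots used Python 3.11.15 and matplotlib 3.10.9.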

Additional observations from a re-analysis of the deposited data

Results flagged for a closer look

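In 4 of the 22 groups of 4 values checked, 1 animal lay far from the other 3 by Dixon's criterion (the gap to the nearest animal, over the range of the group), where chance gives about 1 in 20 groups. Vehicle animal 3 was above its group for Hnmt, at -2.99, and for Kit, at -2.28. Vehicle animal 2 was above its group for Hrh2, at -7.10, on a probe that was well above background on 2 vehicle arrays. Y+I animal 3 was below its group for probe a of Hrh3, at 2.53. Hdc and Tpsab1 had no such animal in either group.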

How the results depend on the processing

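Among 131 recomputed comparisons of the 6 tested genes, 131 kept their direction and 128 their call. The filters, the trend and robust variance and the replicate block left the fold changes of these genes as they were. Their direction could not turn in those settings, and every setting reuses the same arrays. Without Y+I animals 2 and 3, 1 of the genes was called instead of 2, and with the dimmer spot of each probe also 1, in both cases because Tpsab1 was no longer called (log2 fold change 1.40 and 1.17); in all fits that left out 1 animal it was 2 to 2. Hrh1 was called with normexp (0.48). Of the untested genes, Tpsb2 turned to 0.29 with normexp and Cpa3 to -0.08 with quantile normalisation. The count of all features called was 439, and 3887 without a filter on background, 898 with array weights, 164 without Y+I animals 2 and 3, and 121 to 355 with 1 animal left out. Of those called, 31.7% were higher, against 66.4% with normexp, 43.3% with a filter on all 8 arrays and 86.5% with no filter, and normexp moved the median of all features from -0.02 to 0.09. The count in the 6 pathway lists was 1 (Crhr1). It was 0 with normexp, the value table, the filter on all 8 arrays and the brighter spot of each probe. It was also 0 without Y+I animals 2 and 3 and in every fit with 1 animal left out. With trend and robust variance it was 2, with array weights 3 and without a filter 12. Of those 12, 10 were higher and 2 lower. Those higher included Ms4a2 and Mcpt10, well above background on no array, and the tryptase Tpsg1, on 2 vehicle arrays and 1 Y+I array. With the animal number as a replicate block, which the pairing check does not back, 144 features and 0 pathway genes were called, and Hdc and Tpsab1 were both called. The cause of these changes was not tested. Signal over background limits Hrh2, Tpsb2, Cma1 and Cpa3, which were too dim to be tested, and also Tpsab1 and Hrh1, which were close to background; the 4 animals per group limit every value. The settings with the dimmer and the brighter spot were chosen after seeing the data.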

Other observations

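The 2 spots of a probe also differed for 4 genes that were not tested, besides Tpsab1, whose ratio of up to 8.63-fold was the highest of the 10 probes with 2 spots. The 2 spots of the Cma1 probe differed 7.11-fold in vehicle animal 2, the only array on which that gene was well above background. For Hrh2 the highest ratio of the 2 spots was 3.56-fold, in Y+I animal 4, which was also the only Y+I array on which that receptor was well above background. For Tpsb2 it was 2.79-fold, in vehicle animal 2, and for Cpa3 2.49-fold, in the same animal.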
